A study of Mus musculus with 12 samples.

Results

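The 9 genes by which the mouse oocyte and its follicle signal to each other are followed here through oocyte growth, with and without RNase H1. They were taken by symbol from the expression table of the series. They are the secreted ligands Gdf9, Bmp15, Bmp6 and Fgf8, the oocyte-secreted proteins Oosp1, Oosp2 and Oosp3, the receptor Kit and the connexin Gja4. All 9 were found, on 1 line each, among the 25162 genes of the table, and all 9 were among the 10110 genes compared, whose mean over the columns was 1 FPKM or more.

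The growing oocyte does not develop alone. It secretes ligands of the TGF-beta superfamily and an FGF, which act on receptors of the surrounding granulosa cells and hold these in a state that feeds and supports the oocyte. Signals also run inward. KIT on the oocyte surface receives KIT ligand made by granulosa cells, and gap junctions built from connexin 37, the Gja4 product, pass small molecules from granulosa cells into the oocyte.

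Oocytes came from 2 genotypes at 3 stages. The control is headed Rnaseh1 fl/fl in the table, a floxed gene without deletion, and is titled WT. The deletion is headed Rnaseh1 oo-/- and is titled KO. The stages are named NGO, GO and FGO, usual short forms for oocytes before growth, in growth and at full size. The sources used here do not give the Cre line, the strain, the age of the mice or the part of Rnaseh1 that is removed. Of each genotype and stage 2 samples of 10 pooled oocytes were made, with 100 pg of ERCC spike-in RNA in the lysis buffer, and polyadenylated RNA was read after Smart-seq2 amplification.

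The table holds 1 value per gene, genotype and stage, in FPKM (fragments scaled by transcript length and library size) adjusted to the spike-in by the authors. With 1 value per group there is no replicate check, so no SD, n or p-value is given, and the order of neighbouring values cannot be set against their spread. A gene is said to differ, or to stand at least 2-fold apart, when 2 values differ by 1 or more in log2(FPKM + 1). At low FPKM a plain ratio above 2 can fall short of this. "Rescaled" values were divided by 1 factor per column, the median over genes of the ratio to their geometric mean. The factors ran from 0.453 in KO NGO to 2.26 in KO FGO, and rescaling brings the median KO to WT difference of all genes close to 0 at each stage. Rnaseh1 itself stood at 10.8%, 11.2% and 27.6% of WT in the KO columns of NGO, GO and FGO. Of 10 oocyte markers, each was at 1 FPKM or more in every column, except Sohlh1, which was listed at 0 in WT FGO. Of 24 granulosa and cumulus markers, 0 to 9 per column reached 1 FPKM.

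The genes lie at 7 places in the genome, in coordinates of GRCm38.p6. Gdf9 is on chromosome 11 (53430774 to 53437904, 2 exons), Bmp15 on chromosome X (6314054 to 6320724, 2 exons) and Bmp6 on chromosome 13 (38345716 to 38500314, 7 exons). Kit is on chromosome 5 (75574987 to 75656722, 21 exons) and Gja4 on chromosome 4 (127311420 to 127314039, 2 exons). Fgf8 is on chromosome 19 (45736491 to 45742941, 5 exons). The Oosp genes sit together on the same chromosome, Oosp2 at 11647284 to 11660559, Oosp1 at 11667460 to 11691051 and Oosp3 at 11697055 to 11711858. The 3 genes span 64.6 kb, with gaps of 6.90 kb between Oosp2 and Oosp1 and 6.003 kb between Oosp1 and Oosp3. Their longest coding transcripts are short, at 972 nt for Oosp1, 677 nt for Oosp2 and 807 nt for Oosp3, against 1793 nt for Gdf9, 3060 nt for Bmp15 and 5241 nt for Kit. The Bmp6 exons share 224 of 3900 bp with Txndc5 on the other strand and those of Oosp3 share 57 of 823 bp with the pseudogene Gm19224. The libraries were not read by strand, so reads from these stretches cannot be assigned to one gene. Txndc5 was listed at 33.3, 122 and 119 FPKM in WT NGO, GO and FGO and at 27.4, 104 and 207 FPKM in KO, above Bmp6 in every column. The part of Txndc5 reads in the Bmp6 values given below was not tested.

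Promoter sequences from RefSeq (GRCm38.p6) were matched for 6 of the 9 genes, Bmp15, Bmp6, Oosp1, Oosp2, Kit and Gja4. The 250 bases before the start are shown for 2 Oosp genes and Bmp15, which were higher at each later stage both as deposited and after rescaling. They are shown too for Gja4, which was higher at each later stage as deposited but after rescaling had near equal values in WT NGO and WT FGO (255 and 254 FPKM). Capitals mark letters searched for on both strands. They are the E-box CANNTG, the core letters bound by basic helix-loop-helix factors such as FIGLA, and TAATTG and TGATTG, letters known to be bound by the oocyte homeodomain factors NOBOX and LHX8.
Oosp1, minus strand, chr19:11691052-11691301: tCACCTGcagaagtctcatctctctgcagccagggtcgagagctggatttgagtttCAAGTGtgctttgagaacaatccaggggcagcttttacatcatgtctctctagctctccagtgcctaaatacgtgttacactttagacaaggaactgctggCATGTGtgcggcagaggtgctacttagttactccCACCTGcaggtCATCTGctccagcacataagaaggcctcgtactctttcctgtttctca
Oosp2, minus strand, chr19:11660560-11660809: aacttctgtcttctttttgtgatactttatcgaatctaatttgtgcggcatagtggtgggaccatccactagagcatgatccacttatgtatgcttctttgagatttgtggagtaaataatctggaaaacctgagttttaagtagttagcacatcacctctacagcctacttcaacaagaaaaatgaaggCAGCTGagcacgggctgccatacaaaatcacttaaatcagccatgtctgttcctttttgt
Bmp15, minus strand, chrX:6320725-6320974: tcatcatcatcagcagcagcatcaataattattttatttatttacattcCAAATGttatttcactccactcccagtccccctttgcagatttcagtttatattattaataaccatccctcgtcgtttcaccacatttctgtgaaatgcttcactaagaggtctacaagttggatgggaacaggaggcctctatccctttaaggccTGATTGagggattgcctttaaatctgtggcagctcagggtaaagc
Gja4, minus strand, chr4:127314040-127314289: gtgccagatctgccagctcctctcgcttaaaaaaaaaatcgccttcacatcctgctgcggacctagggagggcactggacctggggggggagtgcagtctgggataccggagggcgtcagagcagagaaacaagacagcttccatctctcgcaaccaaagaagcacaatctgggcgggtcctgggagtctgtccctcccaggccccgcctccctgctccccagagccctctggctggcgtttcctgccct
The Oosp1 window held 5 E-boxes, at 249, 194, 93, 59 and 48 bases before the start. Oosp2 held 1 E-box, at 60 bases, and Bmp15 held 1 at 201 bases and TGATTG at 45 bases. Bmp6 held 2 E-boxes, and Kit and Gja4 held none of the 3 motifs. TAATTG was in none of the 6 windows. Among 32851 promoter windows of the same length, 66.2% held an E-box, 7.17% TAATTG and 12.7% TGATTG, so an E-box is common. The windows also differed in base composition, with a GC content of 39.6% for Oosp2, 40.4% for Bmp15 and 49.2% for Oosp1 against 61.2% for Gja4, 68.8% for Bmp6 and 70.8% for Kit. The median over all windows was 52.4%.

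All 9 genes had their highest deposited value in KO FGO, and as deposited each was higher in GO than in NGO in both genotypes. KO FGO was also the column with the largest summed FPKM over all genes, 729690 against 460906 in WT FGO. Gdf9, the TGF-beta family ligand without which follicles stop at the primary stage, was the most abundant of the 9 in every column. It was listed at 799.9, 1609.7 and 1668 FPKM in WT NGO, GO and FGO and at 716, 1860.02 and 3521 FPKM in KO. The 2 genotypes lay close at NGO and GO, and the KO FGO value stood apart from the other 5. Among all genes of the table Gdf9 ranked 17th, 20th and 29th in the WT columns and 13th, 12th and 14th in KO.

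Bmp15, the partner ligand of Gdf9 encoded on the X chromosome, was listed at 135, 631 and 868 FPKM in WT and at 94.1, 519 and 1503 FPKM in KO. KO was below WT at NGO and GO and above it at FGO. Bmp6, another ligand of the BMP class, was the least abundant of the 9 in every column, at 4.96, 12.2 and 16.9 FPKM in WT and 4.63, 10.8 and 18.9 FPKM in KO. KO was at 0.933, 0.884 and 1.12 times WT at the 3 stages, as deposited, and at 1.06, 0.932 and 0.645 times WT after rescaling. Fgf8, which acts with BMP15 to promote glycolysis in cumulus cells, was listed at 39.5, 119.7 and 82.1 FPKM in WT and at 21.9, 92.4 and 145 FPKM in KO. In WT it was highest at GO and lower again at FGO, while in KO the FGO value was the highest.

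The Oosp genes encode small secreted proteins made by the oocyte. Oosp1 was listed at 219.7, 872 and 1284 FPKM in WT and at 128, 517 and 1806 FPKM in KO. Oosp2 was listed at 17.7, 71.8 and 173 FPKM in WT and at 11.9, 39.8 and 174 FPKM in KO. Oosp3 was listed at 26.96, 201 and 367 FPKM in WT and at 13.8, 121 and 526 FPKM in KO. In all 3, KO was below WT at NGO and at GO, and at FGO it was above WT for Oosp1 and Oosp3 and level with it for Oosp2.

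Kit was listed at 26.6, 58.6 and 47.03 FPKM in WT and at 31.7, 86.3 and 107 FPKM in KO. KO was above WT at all 3 stages, as deposited and after rescaling. As deposited Kit was the only one of the 9 for which this held, and after rescaling it also held for Gdf9, at 1.02, 1.22 and 1.22 times WT. Gja4 was listed at 131, 285 and 332 FPKM in WT and at 111, 359.6 and 728 FPKM in KO, below WT at NGO and above it at GO and FGO.

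**Figure D1:**
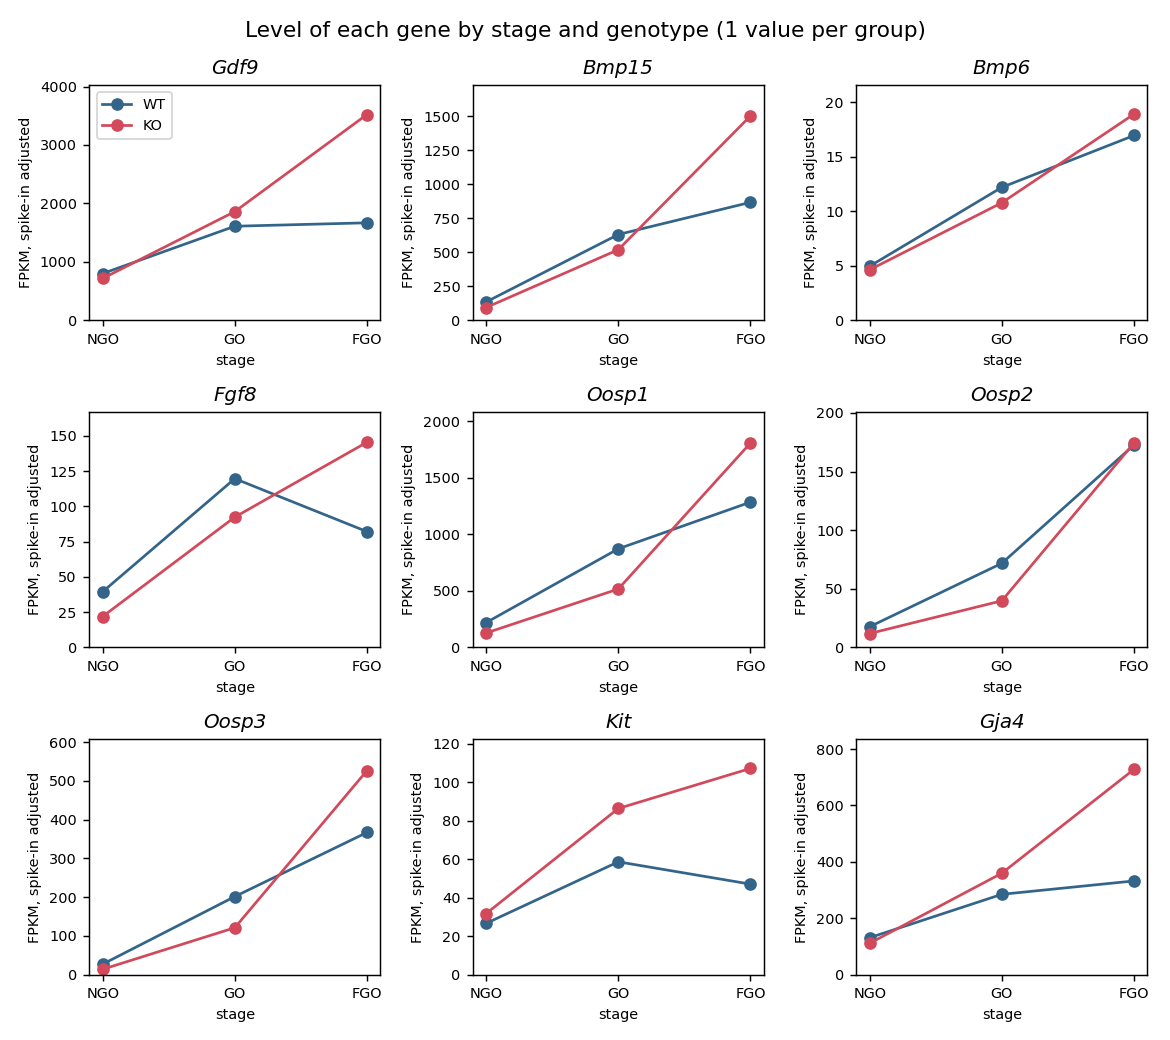
Spike-in adjusted FPKM (vertical axis, from 0, own scale per gene) of the 9 genes at NGO, GO and FGO (horizontal axis), with 1 point per genotype and stage and no error bar because there is 1 value per group. The KO FGO point is the highest of the 6 for each gene, from 18.9 FPKM for Bmp6 to 3521 FPKM for Gdf9. KO FGO also had the largest summed FPKM over all genes.

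Within a column the order of the genes changed with stage. FPKM is scaled by transcript length, so levels of different genes can be set beside each other. In WT NGO the order from high to low was Gdf9, Oosp1, Bmp15, Gja4, Fgf8, Oosp3, Kit, Oosp2 and Bmp6. By WT FGO Oosp3 had passed Gja4, and Oosp2 had passed Fgf8 and Kit. The highest value in a column was between 98.5 and 186 times the lowest. The 9 genes together made up 0.894%, 1.004% and 1.05% of the summed FPKM in WT NGO, GO and FGO and 0.858%, 1.01% and 1.17% in KO. Gdf9 alone took 57.1% of that sum in WT NGO and 34.5% in WT FGO, while the 3 Oosp genes went from 18.9% to 37.7%. In KO the share of Gdf9 went from 63.2% to 41.3% and that of the Oosp genes from 13.6% to 29.4%.

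The first comparison follows control oocytes through growth. From NGO to GO in WT all 9 genes were at least 2-fold higher, beside 54.8% of all genes compared, so the count of 9 describes a table-wide shift. The steps differed in size. Oosp3 was 7.47-fold higher in GO than in NGO, Bmp15 4.67-fold, Oosp2 4.06-fold and Oosp1 3.97-fold. Gdf9 (2.01-fold), Gja4 (2.17-fold) and Kit (2.201-fold) lay near the median gene, whose log2 difference was 1.06. After rescaling, Oosp3 was the only one of the 9 still past 2-fold (log2 difference 1.55, with 6.06% of all genes at least 2-fold higher). Bmp15 was at 0.89, Oosp2 at 0.68 and Oosp1 at 0.66, whereas Gdf9 (-0.32), Gja4 (-0.21), Kit (-0.19) and Bmp6 (-0.03) turned to values below 0.

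From GO to FGO in WT, Oosp2 alone was at least 2-fold higher, with a log2 difference of 1.25 as deposited and 1.23 after rescaling. Of all genes 6.50% and, after rescaling, 5.78% were at least 2-fold higher. Oosp3 (0.86), Oosp1 (0.56), Bmp15 (0.46) and Bmp6 (0.44) followed, Gja4 was at 0.22 and Gdf9 at 0.05. Kit (-0.31) and Fgf8 (-0.54) had lower values in FGO than in GO. The WT columns thus held Oosp and Bmp15 values that were higher at each later stage on either scale, and Gdf9 values that differed little between GO and FGO.

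The same steps were taken in KO. From NGO to GO all 9 genes were again at least 2-fold higher, beside 57.6% of all genes. After rescaling Oosp3 (1.67) and Bmp15 (1.03) remained past 2-fold, beside 5.37% of all genes. From GO to FGO in KO 5 of the 9 were at least 2-fold higher, beside 39.0% of all genes. They were Oosp3 (2.11), Oosp2 (2.10), Oosp1 (1.80), Bmp15 (1.53) and Gja4 (1.02). After rescaling Oosp3 (1.23) and Oosp2 (1.22) stayed past 2-fold, beside 6.42% of all genes, and Bmp6 (-0.07), Fgf8 (-0.23) and Kit (-0.56) were below 0. Over the whole of growth, from NGO to FGO, Oosp3 was 13.6-fold higher in WT and 38.2-fold higher in KO, Bmp15 6.42-fold and 15.98-fold, and Gdf9 2.09-fold and 4.92-fold, as deposited. After rescaling FGO stood at 5.35 (WT) and 7.65 (KO) times NGO for Oosp3, 2.52 and 3.20 times for Bmp15, and 0.820 and 0.985 times for Gdf9, so that the direction for Gdf9 turned.

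The second comparison asks how loss of RNase H1 bore on these genes at each stage. At NGO none of the 9 stood 2-fold apart between KO and WT, and 0.356% of all genes did (0.485% after rescaling). The median of the 9 was -0.52, below the -0.11 of all genes, and 8 of the 9 had a lower value in KO. Most genes were lower in KO too, as 55.4% of all genes lay below the -0.08 of Bmp6. After rescaling the median was -0.34 and 6 of the 9 were lower in KO, with Gdf9 (0.02) and Bmp6 (0.07) now just above 0. Of all genes 40.2% then lay below the -0.06 of Gja4 and 52.2% below the 0.02 of Gdf9. Oosp3 (-0.92), Fgf8 (-0.82) and Oosp1 (-0.78) lay lowest, and 0.504%, 0.920% and 1.16% of all genes lay lower than each. In these bulk samples fewer oocytes in a lysate and less RNA per oocyte cannot be told apart. After rescaling Oosp3 was at -0.77, Fgf8 at -0.66 and Oosp1 at -0.60. Kit went the other way, at 0.24 as deposited and 0.43 after rescaling, and 95.1% of all genes lay below its deposited difference.

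At GO, too, none of the 9 stood 2-fold apart, beside 2.98% of all genes (2.32% after rescaling). The 9 ran from -0.84 to 0.55. The 3 Oosp genes lay together on the low side, with differences of -0.84 for Oosp2, -0.75 for Oosp1 and -0.73 for Oosp3, where the median gene was at -0.09. Kit (0.55), Gja4 (0.34) and Gdf9 (0.21) lay on the high side, and Bmp6 (-0.16), Bmp15 (-0.28) and Fgf8 (-0.37) between them. Rescaling left these close to where they were, at -0.76, -0.68 and -0.65 for the Oosp genes and 0.62, 0.41 and 0.28 for Kit, Gja4 and Gdf9.

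At FGO all 9 had a higher value in KO as deposited. The 5th percentile of all genes was 0.028, so nearly all genes were higher there too. Kit (log2 difference 1.17), Gja4 (1.13) and Gdf9 (1.08) were at least 2-fold higher. That is 3 of 9 beside 25.8% of all genes, a share near the background. The median gene was at 0.72. Fgf8 (0.82) and Bmp15 (0.79) lay near it, and Oosp3 (0.52), Oosp1 (0.49), Bmp6 (0.15) and Oosp2 (0.01) below it. After rescaling none of the 9 was past 2-fold, beside 1.68% of all genes at least 2-fold higher. Kit stood at 0.39, Gja4 at 0.34 and Gdf9 at 0.29. Bmp15 was at 0.003 and Fgf8 at 0.03, and Oosp2 (-0.77), Bmp6 (-0.58), Oosp1 (-0.30) and Oosp3 (-0.27) were below 0. For these last 4 the direction at FGO was not the same on the 2 scales. Oosp2 is the clearest case, with 173 FPKM in WT and 174 in KO as deposited and 132 and 77.2 after rescaling.

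**Figure D2:**
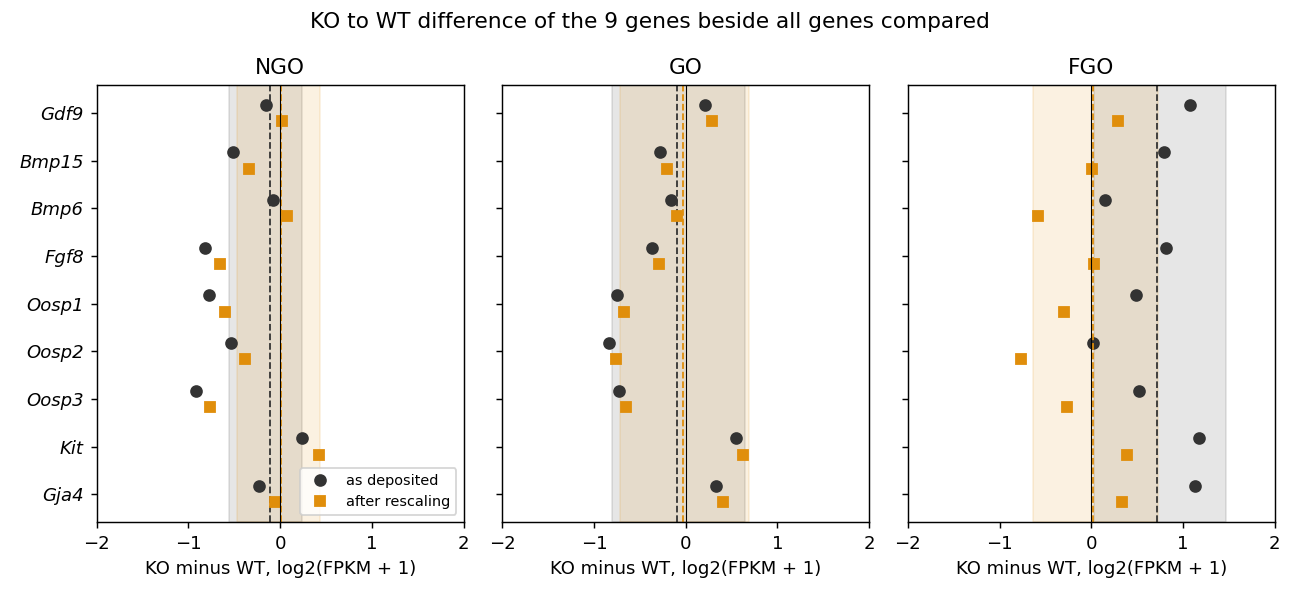
Difference between KO and WT on the log2(FPKM + 1) scale (horizontal axis) for the 9 genes (rows) at each stage, as deposited (circles) and after rescaling (squares). Shaded bands span the 5th to the 95th percentile of all 10110 genes compared and dashed lines mark their medians, and the Oosp genes lie left of the rescaled median at each stage while Kit lies right of it.

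Between genotypes, short transcripts as a class moved with the Oosp result. The 506 other genes with coding transcripts of up to 1000 nt had rescaled medians of -0.24 at NGO, -0.42 at GO and -0.40 at FGO, against 0.02, 0.00 and 0.05 for the 9119 other genes with longer ones. The Oosp genes, all 3 in the short class, ranged from -0.77 to -0.38 at NGO, from -0.76 to -0.65 at GO and from -0.77 to -0.27 at FGO. The classes also differed in the steps between stages. From GO to FGO the rescaled medians of the short class were 0.32 in WT and 0.30 in KO, against 0.03 and 0.01 for the longer one. From NGO to GO they were -0.13 in WT and -0.37 in KO, against -0.01 and -0.02. The Oosp genes went the other way at that step, from 0.66 to 1.55 in WT and from 0.30 to 1.67 in KO. From GO to FGO the Oosp genes ran from 0.54 to 1.23 in WT and from 0.92 to 1.23 in KO. Whether transcript length had a part in the Oosp differences between genotypes or stages was not tested. The 6 other genes have longer transcripts, of which Fgf8 is the shortest at 1168 nt.

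A ratio of 2 genes within one column does not depend on any factor put on that column, so it is free of the spike-in scale. Bmp15 stood at 16.9%, 39.2% and 52.02% of Gdf9 in WT NGO, GO and FGO and at 13.1%, 27.9% and 42.7% in KO. The ratio was higher at each later stage in both genotypes and lower in KO than in WT at each stage, by factors of 0.777, 0.712 and 0.821. Either gene can move such a ratio. After rescaling KO stood at 1.02, 1.22 and 1.22 times WT for Gdf9 and at 0.789, 0.868 and 1.002 times for Bmp15. For Fgf8 these values were 0.630, 0.814 and 1.02. For Oosp1 the ratio to Gdf9 was 27.5%, 54.2% and 77.0% in WT and 17.9%, 27.8% and 51.3% in KO. For Oosp3 it was 3.37%, 12.5% and 21.99% in WT and 1.92%, 6.51% and 14.9% in KO. For Oosp2 it was 2.21%, 4.46% and 10.4% in WT and 1.66%, 2.14% and 4.95% in KO, so that KO was at 0.750, 0.480 and 0.478 times the WT ratio.

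By contrast, Gja4 kept a near constant ratio to Gdf9, at 16.4%, 17.7% and 19.9% in WT and 15.5%, 19.3% and 20.7% in KO. Going from NGO to FGO, the factors between genotypes were 0.947, 1.09 and 1.04. Kit stood at 3.33%, 3.64% and 2.82% of Gdf9 in WT and 4.43%, 4.64% and 3.04% in KO, higher in KO by factors of 1.33, 1.27 and 1.08. Fgf8 was lower relative to Gdf9 in KO, by factors of 0.620, 0.668 and 0.839. Bmp6 was level with WT at NGO (1.04) and lower at GO (0.765) and FGO (0.529). Among the Oosp genes, Oosp3 to Oosp1 gave near equal ratios in WT and KO at GO (23.1% and 23.4%) and FGO (28.6% and 29.1%), whereas Oosp2 to Oosp1 was 13.4% at WT FGO against 9.65% for KO.

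**Figure D3:**
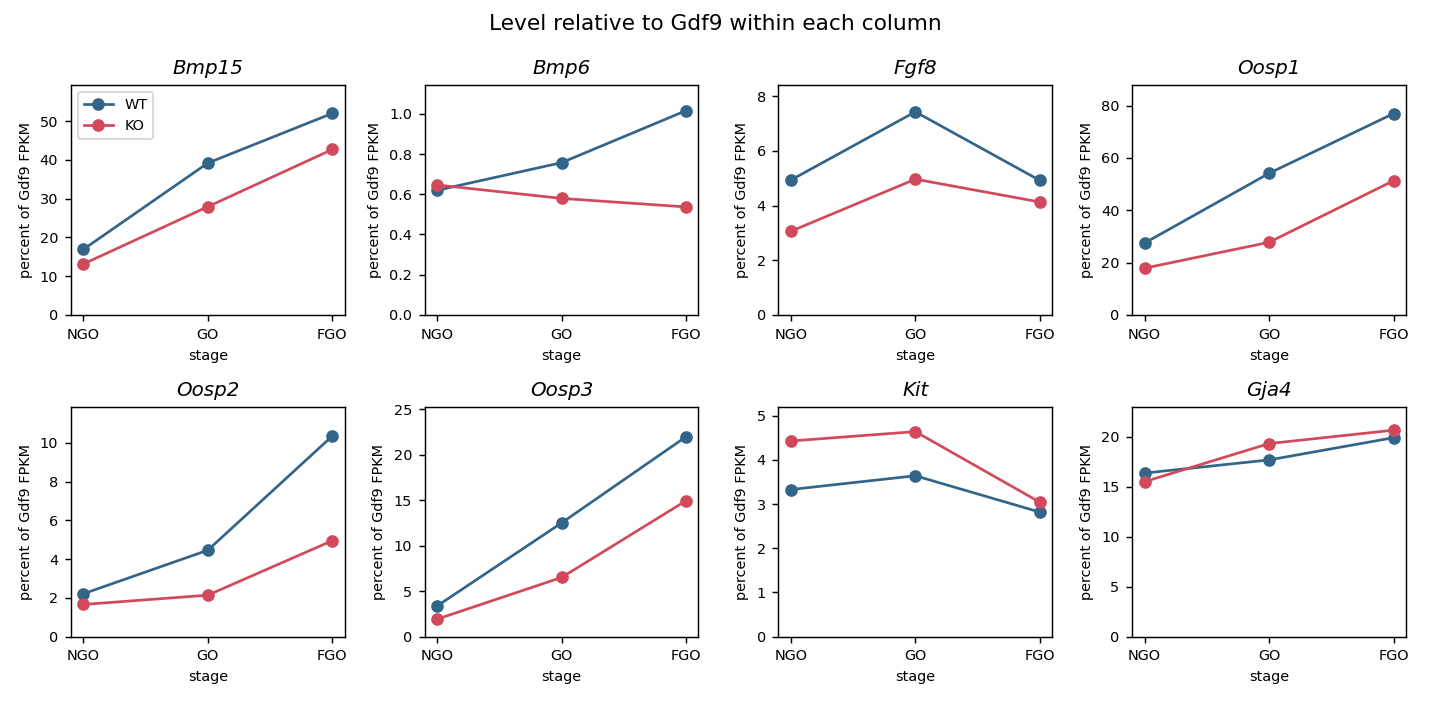
Level of 8 genes as a percent of the Gdf9 level in the same column (vertical axis, from 0) at NGO, GO and FGO for WT and KO, 1 point per column. The KO points of Bmp15, Fgf8 and the 3 Oosp genes lie below the WT points at each stage, and those of Gja4 lie within a factor of 1.09 of WT. A ratio can differ through either gene.

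How far the genotypes' difference itself moved between stages was also taken. From NGO to GO none of the 9 changed 2-fold, beside 2.06% of all genes (1.70% after rescaling), and Gja4 had the largest change at 0.57. From GO to FGO 4 of the 9 did, namely Oosp3 (1.25), Oosp1 (1.25), Fgf8 (1.19) and Bmp15 (1.07), beside 29.2% of all genes, whose median was 0.80. After rescaling none of the 9 changed 2-fold, beside 2.42% of all genes, and the values ran from -0.48 for Bmp6 to 0.39 for Oosp3.

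For each of the 9 the 2 genes with the most similar profile were found, by the smallest root mean square difference of centred log2(FPKM + 1) values over the 6 columns. The 9 themselves and symbols that are clone names or predicted genes were left out of this search. For Gdf9 these were Asb8 (0.038) and Tcp1, a chaperonin subunit (0.040). For Gja4 they were Usp15 (0.048), a deubiquitinase, and Med1 (0.051), a Mediator subunit, and for Kit Map3k4 (0.026) and Nsf (0.026). Bmp15 was nearest to Arg2 (0.062), an arginase, and to Rfpl4 (0.065), an oocyte-expressed gene. Oosp3 was nearest to the oocyte homeobox genes Obox5 (0.108) and Obox2 (0.110), Oosp1 to Calr4 (0.077) and Pde6d (0.101), and Oosp2 to Best2 (0.128) and Tmtc1 (0.133). Fgf8 had Fdx1 (0.102) and Mterf1a (0.103), and Bmp6 had Ncoa6 (0.050) and Ube4b (0.059). Among the 9 themselves Gdf9 and Gja4 were closest (0.147), then Bmp15 and Oosp1 (0.226) and Oosp1 and Oosp2 (0.258), while Kit and Oosp3 were furthest apart (1.40). The 6 columns share 3 stages, so most genes that climb with growth resemble one another to some degree.

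Other genes of the same dialogue were taken from lists of ligands, receptors, antagonists, signal adaptors, connexins and contact proteins. Their counts at FGO are to be read against the 25.8% of all genes at least 2-fold higher in KO as deposited and the 1.68% after rescaling. Of 29 other TGF-beta superfamily ligands 5 reached the mean of 1 FPKM. By the cut-off on log2(FPKM + 1), 1 of the 5 was at least 2-fold higher in KO at FGO. This was Inha, the inhibin alpha subunit of granulosa cells, with WT at 1.17 FPKM against 9.32 for KO. Tgfb2, a ligand of the TGF-beta class proper, was the most abundant of these 5, with 10.9, 59.2 and 73.2 FPKM for WT against 6.98, 32.5 and 80.9 for KO. Its rescaled differences of -0.43, -0.77 and -0.63 lay below the median gene at each stage, as those of the Oosp genes did. The same held for Bmp5 (-0.32, -0.51 and -0.35) and Tgfb3 (-0.27, -0.04 and -0.12). Gdf15 (0.18) and Inha (1.44) lay above the median gene at FGO. Tgfb3 and Gdf15 were lower in abundance, with FGO levels of 15.8 (WT) and 24.9 (KO) FPKM for Tgfb3 and 2.33 and 4.87 FPKM for Gdf15.

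Of 23 receptors and SMADs, the signal carriers of the same ligands, 16 were compared and 4 were at least 2-fold higher in KO at FGO, none after rescaling, a share near the 25.8% of all genes. The list median was 0.57 where that of all genes was 0.72. The 4 were Tgfbr3, also known as betaglycan (WT 10.3 FPKM, KO 30.2), Tgfbr1 (1.49 and 5.19), Acvr1 (2.997 and 8.44) and Smad5 (1.25 and 4.15). At GO Acvr1 went the other way, WT being at 3.31 FPKM with KO at 1.25, a log2 difference of -0.94. Of 19 genes that process or block these ligands 5 were compared, and Twsg1, a BMP-binding protein (1.99 and 9.36 FPKM), and Pcsk6, a proprotein convertase (2.17 and 8.97 FPKM), were at least 2-fold higher in KO FGO. Twsg1 was still so after rescaling, at 1.03. In the list of 25 FGF ligands and receptors 4 were compared and none differed by 1 or more in log2(FPKM + 1) at any stage. Fgfr2 was the highest of the 4 at FGO, with 11.9 FPKM for WT against 16.9 for KO, and Fgf9 stood at 2.37 and 4.13.

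On the KIT side, 16 of 20 ligand and adaptor genes were compared, 4 were at least 2-fold higher in KO at FGO and none after rescaling, again near the 25.8% of all genes. These were Ptpn6, a phosphatase that dampens KIT signals (7.03 and 20.5 FPKM), Sh2b3 (2.403 and 7.24), Shc1 (6.12 and 15.5) and Sos2 (1.26 and 3.89). The list median was 0.61 as deposited and 0.03 after rescaling, where that of all genes was 0.72 and 0.02. Of 22 other connexins and pannexins 5 were compared. Gja1, the connexin of granulosa cells, was at least 2-fold higher in KO FGO (0.965 and 6.96 FPKM), also after rescaling (1.23). Panx1 was the most abundant of the 5, at 14.4 and 24.2 FPKM, and Gja10 and Gjb2 were at 1.12 and 2.95 and at 3.44 and 5.60 FPKM. Beside 728 FPKM of Gja4 in KO FGO, each of these levels was low.

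Of 19 genes of contact between oocyte and granulosa cell 16 were compared, and 3 were at least 2-fold higher in KO FGO and none after rescaling, a smaller share than the 25.8% of all genes. They were Cdh3, a cadherin (7.05 and 19.4 FPKM), Vcl, vinculin (7.93 and 19.1), and Nectin2 (2.49 and 6.18). The list median at FGO was 0.62 as deposited and -0.12 after rescaling, beside 0.72 and 0.02 for all genes. At NGO and GO none of the compared genes in the 7 lists differed by 1 or more in log2(FPKM + 1) as deposited. Plain ratios of low values could still be above 2, as for Kitl at GO (WT 1.47, KO 0.494 FPKM, log2 difference -0.73).

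**Figure D4:**
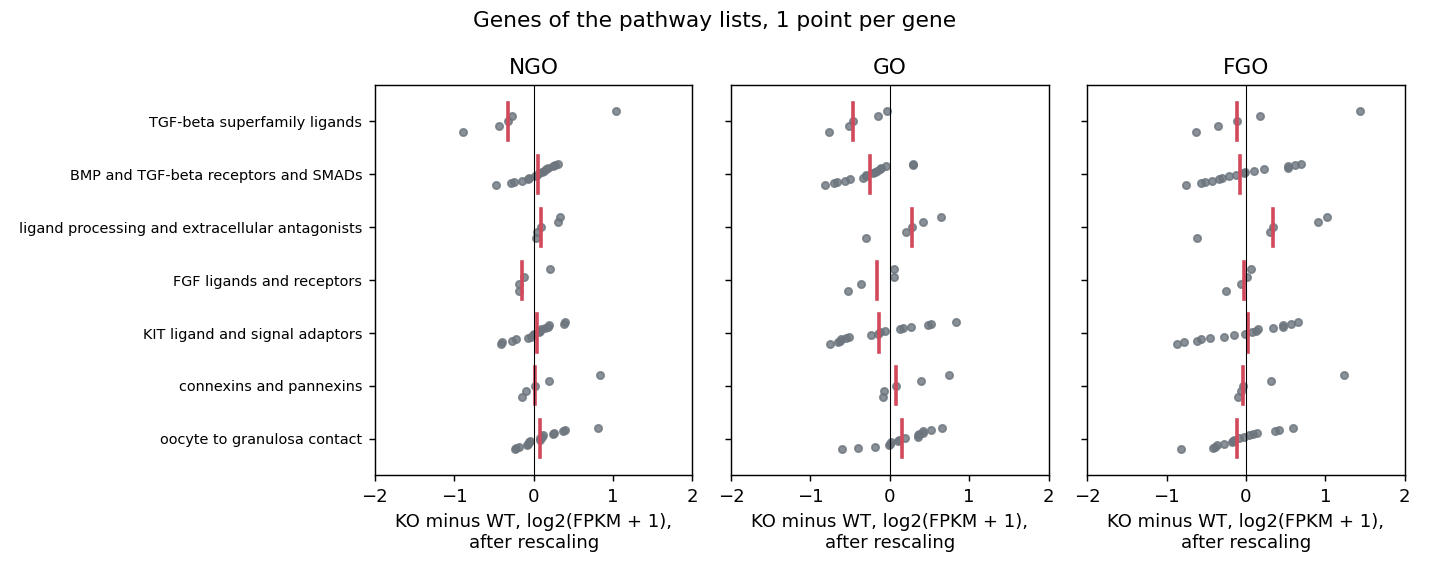
Difference between KO and WT after rescaling on the log2(FPKM + 1) scale (horizontal axis) for each compared gene of the 7 lists (rows), 1 point per gene, at NGO, GO and FGO. Red bars mark list medians, which at FGO run from -0.12 to 0.34, and Inha, Gja1 and Twsg1 are the 3 points above 1 at FGO.

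Granulosa markers moved with the KO FGO column. The 24 markers summed to 3.27, 18.6 and 38.1 FPKM in WT NGO, GO and FGO and to 5.69, 15.5 and 83.5 FPKM in KO, at most 0.0114% of all FPKM in a column. Those at 1 FPKM or more numbered 6 for WT FGO against 9 for KO FGO, and 4 were listed at 0 in each of these 2 columns. Ptx3 and Tnfaip6, genes of the expanding cumulus, were listed at 0 in every column. Foxl2, a defining granulosa gene, had 0.0130 FPKM at WT FGO with 0 listed for KO FGO. Inhba, Inhbb and Has2 were also lower in KO at this stage. The remaining markers were higher in KO at FGO as deposited. Among these were Hsd17b1 (WT 0.845, KO 3.71 FPKM), Fst (0.124 and 0.695), Amhr2 (0.154 and 0.669) and Slc38a3 (0 and 0.701). Esr2 (21.3 and 37.3) and Cyp19a1 (6.16 and 10.4) made up most of both FGO sums, with rescaled differences of 0.02 and -0.03. Inha and Gja1 belong to the 24 markers, and the part of granulosa RNA in the difference of Inha and Gja1 was not tested. Kitl, the granulosa ligand of KIT, had FGO levels of 1.59 FPKM (WT) against 3.19 (KO). In KO FGO all 24 markers together came to 83.5 FPKM, Kit to 107 FPKM and Gja4 to 728 FPKM. A sum of chosen markers does not measure the part of granulosa RNA in the Kit and Gja4 values, which was not tested.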

How the data were processed

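The series measured polyadenylated RNA of mouse oocytes in 12 samples, 2 per genotype and stage. Per the submitters' processing notes, the tools were HISAT2 2.2.1, Cufflinks 2.2.1 and Trim Galore 0.6.7, and the build was mm10. Values are FPKM adjusted to the ERCC spike-in by the authors, as the deposited table is named. The sources used here do not give the formula, the annotation or whether a column is a mean of 2 samples, and read depth is unknown. Of 25912 lines, 2 with spreadsheet errors were dropped, and for 333 symbols on several lines the line of largest mean was used. Each of the 6 columns was assigned to a group from its heading.

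Differences were taken on log2(FPKM + 1) over the 10110 genes whose mean reached 1 FPKM, with no test. The scaling was checked on simulated data in which most genes were set as unchanged, so the check does not show whether that holds here. The members and lists were chosen with earlier results of these data known. Genes named from each list were drawn from the 4 of largest KO to WT difference at any stage, not all of which are given. Others were chosen after their values were seen. RefSeq (GRCm38.p6) gave coordinates and promoters, and GENCODE M21 gave coding transcript lengths for 95.3% of compared genes. As alternatives, summed lines, 2 scalings, a minimum mean of 5, no filter and pseudocount 0.1 were run. Software was Python 3.11.15, numpy 2.4.6, pandas 2.3.3 and matplotlib 3.10.9.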

Additional observations from a re-analysis of the deposited data

Results flagged for a closer look

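As deposited, the KO to WT difference of 4 of the 9 genes had opposite signs at GO and FGO and changed by at least 2-fold between them. The change on the log2(FPKM + 1) scale was 1.25 for Oosp3 (from -0.73 to 0.52), 1.25 for Oosp1 (from -0.75 to 0.49), 1.19 for Fgf8 (from -0.37 to 0.82) and 1.07 for Bmp15 (from -0.28 to 0.79). With 1 value per group the difference between stages was not tested. After rescaling the changes were 0.39, 0.38, 0.33 and 0.21. The sign was then the same at GO and FGO for Oosp3 (-0.65 and -0.27) and Oosp1 (-0.68 and -0.30). Fgf8 (-0.29 and 0.03) and Bmp15 (-0.20 and 0.003) were close to 0 at FGO. Of all genes compared, 29.2% changed by 2-fold or more as deposited, a share counted without the condition of opposite signs.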

How the results depend on the processing

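Pseudocount 0.1, no filter, a minimum mean of 5 and summed lines left each of the 81 member values (9 genes in 9 comparisons) in its direction and on its side of 2-fold. As deposited, 31 of the 81 were past 2-fold. Median-ratio scaling put 25 of these 31 under 2-fold, 6 of them with a turned sign, and equal column totals put 26 under, 6 with a turned sign. Among the values not past 2-fold as deposited, the sign turned for 14 and 16, so that 20 and 22 of the 81 turned in all. Members past 2-fold numbered, as deposited, under median-ratio scaling and under equal totals, 3, 0 and 0 for KO against WT at FGO and 9, 1 and 1 for NGO to GO in WT. They numbered 9, 2 and 2 for NGO to GO in KO, 5, 2 and 2 for GO to FGO in KO and 4, 0 and 0 for the change from GO to FGO. From GO to FGO in WT, 1 became 0 with equal totals.

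Among values past 2-fold as deposited, the sign from NGO to GO in WT turned under median-ratio scaling for Gdf9 (-0.32), Gja4 (-0.21), Kit (-0.19) and Bmp6 (-0.0275), and under equal totals for Gdf9 (-0.28), Gja4 (-0.17) and Kit (-0.15). From NGO to GO in KO it turned for Gdf9 (-0.0569 and -0.0522) and Bmp6 (-0.19 and -0.19), and from GO to FGO in KO for Gja4 (-0.0190, equal totals). Among the smaller values, KO against WT at FGO turned for Bmp6 (-0.58 and -0.46), Oosp1 (-0.30 and -0.17), Oosp2 (-0.77 and -0.64) and Oosp3 (-0.27 and -0.14). GO to FGO in KO turned for Kit (-0.56 and -0.71), Fgf8 (-0.23 and -0.38) and Bmp6 (-0.066 and -0.21), and for Gdf9 (-0.12) with equal totals alone. The 15 list genes past 2-fold at FGO became 6 with a minimum mean of 5, 3 with median-ratio scaling and 4 with equal totals. At NGO 0 became 3 with pseudocount 0.1, 1 with median-ratio scaling and 2 with equal totals, and at GO 0 became 3 with pseudocount 0.1. These alternatives for the lists were chosen after the data were seen.

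No paired analysis was possible because the table has 1 column per group and carries no replicate numbers, and for the same reason leaving out a replicate was not run. Counting error is unknown, as no depth is given.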

Other observations

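Near the Oosp genes lies Ms4a6d, a gene of the membrane-spanning 4A family better known from myeloid cells, on chromosome 19 at 11586606 to 11604804, 42.5 kb before the Oosp2 gene. Between Ms4a6d and Oosp2 lie Ms4a2 and Ms4a3, at no more than 0.165 and 0.460 FPKM in any column. Ms4a6d was picked after its values were seen. It was listed at 1.14, 14.5 and 23.1 FPKM in WT and at 0.673, 6.42 and 33.3 FPKM in KO. From NGO to GO it was 12.8-fold higher in WT and 9.54-fold in KO. Its KO to WT difference over the 3 stages was -0.35, -1.07 and 0.51 as deposited and -0.37, -0.97 and -0.25 after rescaling. Of the 20 Ms4a genes listed, only 3 reached 1 FPKM in any column. The 5 immune markers summed to between 0.371 and 1.99 FPKM per column.

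Other signals of the ligand and contact lists were also picked after their values were seen. Bmp5, a BMP class ligand, stood at 0.431, 18.0448 and 47.3 FPKM in WT and 0.213, 11.6 and 63.7 FPKM in KO. Rspo2, a secreted enhancer of WNT signals, stood at 49.4, 192 and 193 FPKM in WT and 41.9, 161 and 298 FPKM in KO. Jag1, a NOTCH ligand, stood at 33.1, 98.1 and 117 FPKM in WT and 27.5, 94.2 and 166 FPKM in KO. For Rspo2 and Jag1 the rescaled KO to WT differences at FGO were -0.16 and -0.28, and at GO -0.18 and 0.02.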
